A study of Rattus norvegicus with 2 samples.

Results

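The genes of glycolysis and of the response to low oxygen were examined in the urinary bladders of rats given dimethylarsinic acid (DMA), a methylated arsenic compound that is a bladder carcinogen in the rat. The set held 36 genes, 23 of glucose uptake, glycolysis and lactate handling and 13 of oxygen sensing and the hypoxia response, and membership went by gene name, with no signal or ratio in the rule. However, the genes and the lists of other genes set beside them were chosen with earlier results of these data known. All 36 were found among the 22093 genes of the array, on 41 transcript clusters, which are the probe groups the array uses to cover a transcript. Where a gene had several clusters the brightest one stood for it. The DMA pool was RNA of 7 male F344 rats that drank water with 200 ppm DMA for 4 weeks, and the control pool was RNA of 7 male F344 rats that received 0 ppm over the same time. Each pool was hybridised to 1 array. The sample descriptions put the rats at 6 weeks of age at the start and 10 weeks at sampling and name the urinary bladder as tissue, whereas the methods of the study describe older rats and epithelial cells shaken off the inverted bladder, so that the share of bladder wall in the RNA is not settled.

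With 1 array per group there was no spread between replicates, and no test of any difference was possible. Pooling also hides the spread between rats. All differences below are therefore differences between 2 pools. Genes were taken as measured if at least 1 of the 2 arrays gave a signal of 100 or more (11718 genes), and differences are given as the log2 ratio of the DMA pool over the control pool. The middle 95% of measured genes had log2 ratios between -0.84 and 0.43, and the median was -0.04. All 16 markers of differentiated urothelium were measured in both pools, among them the uroplakin genes of the superficial cells, with Upk2 at 561252 in the DMA pool and 544597 in the control pool. In that list Krt20, a keratin of the superficial cells, was lower at 1905 in the DMA pool and 4469 in the control pool (-1.23), and Krt18 was higher past 1.5-fold (0.68).

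Glycolysis converts glucose to pyruvate in the cytosol, and lactate dehydrogenase turns pyruvate into lactate when oxygen is short or when glycolysis runs fast. When oxygen is sufficient, prolyl hydroxylases of the Egln family mark the alpha subunits of the hypoxia-inducible factors (HIF), encoded by Hif1a and Epas1, for degradation. When it falls, the factors bind hypoxia response elements in DNA and raise transcription of glycolytic enzymes, glucose transporters and genes of vessel growth, pH control and matrix synthesis. The alpha subunits are controlled mainly at the protein level, so an mRNA level does not give the activity of the factor.

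On the cluster used for each gene, Epas1 alone of the glycolysis and hypoxia genes was past 1.5-fold. Most measured genes of the array (93.2%) also lay within 1.5-fold. Of the 36 genes, 30 were measured, all of them with both signals at 100 or more. At the thresholds named in the methods of the study, which ask for a 2-fold ratio in either direction together with a Z score beyond 2 or -2 (taken here as the distance of a log2 ratio, in SD, from genes of similar signal), 0 of the 30 were higher and 0 were lower in the DMA pool, against 0.375% and 1.42% of all measured genes. At a milder bound of 1.5-fold, 0 of the 30 were higher, against 1.30% of all measured genes, and 1 was lower, which is 3.33%, against 5.48%. These shares lay near or below those of all genes. Within 1.2-fold of no difference were 21 of the 30 (70.0%, against 76.2% of all measured genes). Outside the middle 95% of measured genes lay 2 of the 30, Epas1 below it and Car12 above it. The median log2 ratio of the 30 was -0.04, the same to 2 decimals as that of all measured genes, and 46.7% of the 30 lay above 0, against 41.1% of all measured genes. The methods of the study also name a global median normalization, which these counts did not include. With each array centred on the median of all clusters, 1 of the 30 (Epas1) was lower at the 2-fold thresholds. Lower at them were then 244 of all 11718 measured genes.

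**Figure D1:**
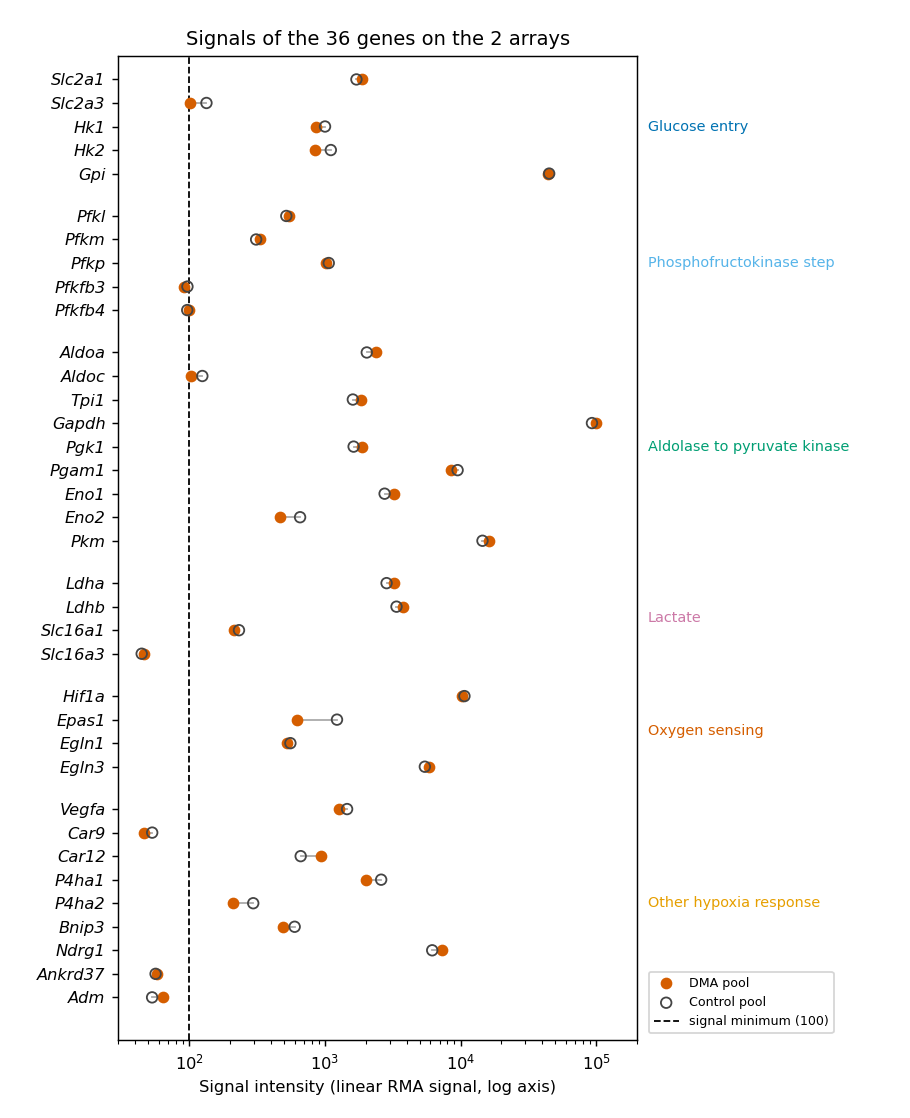
Signal intensity (x axis, log scale) of each of the 36 genes (rows, grouped by role) in the DMA pool (filled points) and the control pool (open circles), 1 array each, with the signal minimum of 100 as a dashed line. The points of most genes nearly coincide, Epas1 has the widest gap (621 in the DMA pool and 1228 in the control pool), and 6 genes lie left of the line on both arrays.

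Epas1 encodes the HIF-2 alpha subunit, which is prominent in endothelium and other stromal cells. Its signal was 621 in the DMA pool and 1228 in the control pool (cluster TC0600000144.rn.1), a log2 ratio of -0.98 or 1.98-fold lower in the DMA pool, just short of the 2-fold bound, with a Z score of -2.63. A lower ratio was found for 1.49% of all measured genes. With each array centred on the median of all clusters the log2 ratio was -1.08, and with ratios centred on the differentiated urothelium markers it was -1.02, and in both cases Epas1 passed the 2-fold thresholds. Both centrings lower every ratio alike, and of the 11718 measured genes 244 and 189 were then lower at these thresholds, against 166. Beside it, all 8 measured endothelial markers of a list of 10 had log2 ratios below 0, with a median of -0.30, and 2 of them, Kdr (-0.77) and Plvap (-0.72), were past 1.5-fold. Of all 11718 measured genes, 6902 lay below 0 and 5.48% were lower past 1.5-fold. The summed signal of the 8 endothelial markers was 5169.9 in the DMA pool and 6708 in the control pool. Vwf of that list was under the signal minimum on both arrays. All 12 fibroblast and matrix markers were lower past 1.5-fold, with a median of -1.43 and summed signals of 223432 in the DMA pool and 464810 in the control pool. The part of these cells in the difference of Epas1 was not tested, and in tissue RNA fewer cells of a type and less RNA per cell cannot be told apart.

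The other genes of oxygen sensing had nearly equal signals in the pools. Hif1a, which encodes the HIF-1 alpha subunit, had 10323 in the DMA pool and 10688 in the control pool, a log2 ratio of -0.05, which was 0.0071 after a lowess correction for signal. Egln1, the main prolyl hydroxylase that marks HIF alpha subunits, had 523 in the DMA pool and 557 in the control pool, a log2 ratio of -0.09. Egln3, a hydroxylase that is itself induced by HIF, had 5898 in the DMA pool and 5458 in the control pool, a log2 ratio of 0.11. None of these 3 lay outside the middle 95% of measured genes. Of a further 9 regulators of HIF, 7 were measured. Past 1.5-fold in either direction were 0 of the 7, against 1.30% higher and 5.48% lower among all measured genes. The median of the 7 was -0.02, and the lowest was Arnt, the common partner of the alpha subunits, at -0.20.

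**Figure D2:**
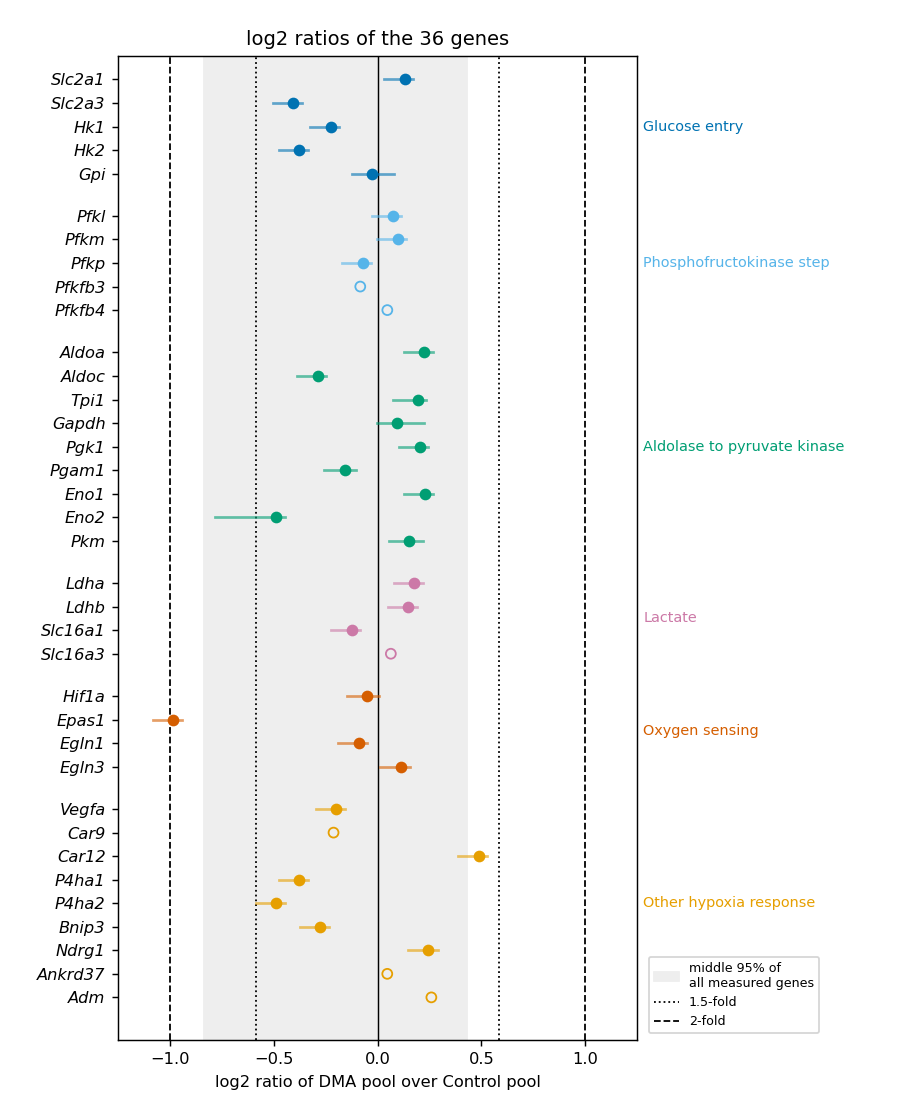
log2 ratio of the DMA pool over the control pool (x axis) for the 36 genes (rows, grouped by role), filled for the 30 measured genes and open for the 6 under the signal minimum. Bars span the values under the alternative calculations, the grey band is the middle 95% of all measured genes, and dotted and dashed lines mark 1.5-fold and 2-fold; Epas1 (-0.98) lies left of the band and Car12 (0.49) right of it.

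Among the 6 measured genes of the hypoxia response outside glycolysis and oxygen sensing, Car12 had the highest ratio, and P4ha2 and P4ha1 had the lowest. Car12, a membrane carbonic anhydrase that helps to control pH at the cell surface, had a signal of 929 in the DMA pool and 663 in the control pool (cluster TC0800000975.rn.1), a log2 ratio of 0.49 or 1.40-fold, with a Z score of 2.09. Its other cluster was dim, at 32.0 in the DMA pool and 25.2 in the control pool, with a log2 ratio of 0.35. Car12 lay under the 1.5-fold bound, and 98.0% of measured genes had a lower ratio. Ndrg1, a gene of differentiation and stress that is induced in hypoxia, had 7323 in the DMA pool and 6184 in the control pool, a log2 ratio of 0.24. P4ha1 and P4ha2 encode catalytic subunits of the hydroxylase that modifies proline in collagen chains. P4ha1 had 1999.7 in the DMA pool and 2600.1 in the control pool, a log2 ratio of -0.38. P4ha2 had 211 in the DMA pool and 296 in the control pool, a log2 ratio of -0.49, which passed 1.5-fold only with arrays centred on the median of all clusters (-0.59). Their ratios stood beside lower type I collagen in the DMA pool, where Col1a1 was at 33587 in the DMA pool and 95837 in the control pool, and the part of fibroblasts in them was not tested. Bnip3, a mitochondrial protein that drives mitophagy, had 495 in the DMA pool and 599 in the control pool (log2 ratio -0.28), and Vegfa, the main growth factor of vessels, had 1269.7 in the DMA pool and 1458 in the control pool (-0.20). For the 10 measured genes of oxygen sensing and the hypoxia response together the median log2 ratio was -0.15. Of the 10, 7 lay below 0, as did 6902 of all 11718 measured genes.

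Car9, Ankrd37 and Adm, which are among the genes used most often as reporters of hypoxia, were under the signal minimum on both arrays. Car9, another membrane carbonic anhydrase, had signals of 46.0 in the DMA pool and 53.3 in the control pool. Ankrd37, an ankyrin repeat protein, had 58.3 in the DMA pool and 56.5 in the control pool. Adm, the vasodilator peptide adrenomedullin, had 63.7 in the DMA pool and 53.3 in the control pool. The median over all clusters was 53.2 in the DMA pool and 49.7 in the control pool, so these 3 signals lay near the level of the dim bulk of the array, and their differences cannot be read.

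The 5 genes of glucose entry had log2 ratios from -0.41 to 0.13, with only Slc2a1 (20% of the 5) above 0, against 41.1% of all measured genes. Slc2a1 encodes GLUT1, the glucose transporter of many epithelia, and had 1871 in the DMA pool and 1709 in the control pool, a log2 ratio of 0.13. Slc2a3, which encodes the high-affinity transporter GLUT3, was dim, with 101 in the DMA pool and 134 in the control pool on the cluster used (-0.41) and 87.2 in the DMA pool and 110.0 in the control pool on its other cluster (-0.33). Hexokinases phosphorylate glucose and so trap it in the cell. Hk1, the widely expressed hexokinase, had 858 in the DMA pool and 1003 in the control pool (log2 ratio -0.23), and Hk2, the form that HIF and insulin induce, had 851 in the DMA pool and 1106 in the control pool (-0.38). Gpi, which interconverts glucose and fructose phosphates, had 44245 in the DMA pool and 45037 in the control pool, a log2 ratio of -0.03 that was 0.080 after the lowess correction. None of the 5 genes reached 1.5-fold, and their median was -0.23.

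The phosphofructokinase genes, which encode the enzyme at the committed step of glycolysis, had log2 ratios close to 0. Pfkl had 547 in the DMA pool and 519.6 in the control pool, Pfkm had 333 in the DMA pool and 311 in the control pool, and Pfkp had 1017 in the DMA pool and 1068 in the control pool. Their log2 ratios were 0.07, 0.10 and -0.07, and those of Pfkl and Pfkm were -0.025 and -0.0023 with arrays centred on the median of all clusters. Pfkfb3 and Pfkfb4 make and remove the regulator fructose 2,6-bisphosphate, and both lay just under the signal minimum. Pfkfb3 had 91.5 in the DMA pool and 97.0 in the control pool, and Pfkfb4 had 99.8 in the DMA pool and 96.7 in the control pool.

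From aldolase to lactate transport, 8 of 12 measured genes had log2 ratios above 0, between 0.09 and 0.23, and all 8 lay within 1.2-fold of no difference. Of all measured genes, 41.1% lay above 0 and 76.2% lay within 1.2-fold. Aldoa, the main aldolase, had 2381 in the DMA pool and 2037 in the control pool, and Eno1, the common enolase, had 3225 in the DMA pool and 2756 in the control pool, and both had a log2 ratio of 0.23. Pgk1, the first step that yields ATP, had 1874 in the DMA pool and 1629 in the control pool (0.20), and Tpi1, which interconverts the triose phosphates, had 1839 in the DMA pool and 1608 in the control pool (0.19). The second cluster of Tpi1 (TSUnmapped00000081.rn.1, unmapped by its name) had a log2 ratio of -0.04. Ldha and Ldhb encode the chains of lactate dehydrogenase, which are also known as the muscle and the heart form. Ldha had 3223 in the DMA pool and 2850.2 in the control pool (0.18), and Ldhb had 3737 in the DMA pool and 3373 in the control pool (0.15). Pkm, the pyruvate kinase outside liver and red cells, had 16131 in the DMA pool and 14517 in the control pool (0.15). Gapdh, an enzyme often used as a loading reference, had 99343 in the DMA pool and 93104 in the control pool, a log2 ratio of 0.09 that was -0.0051 with arrays centred on the median of all clusters. For comparison, the upper quartile of all measured genes was 0.08. The other 4 genes lay below 0. Pgam1, the mutase between Pgk1 and enolase, had 8527 in the DMA pool and 9516 in the control pool (-0.16), and Slc16a1, the lactate transporter MCT1, had 213 in the DMA pool and 233 in the control pool (-0.13). Slc16a3, the lactate exporter MCT4 of hypoxic cells, was under the signal minimum with 46.6 in the DMA pool and 44.6 in the control pool.

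Several of these enzymes have many near-identical copies in the rat genome. By symbol, the RefSeq gene table of the assembly GRCr8 names 228 pseudogenes or gene-like copies of 12 of the 36 genes, with 91 for Gapdh, 34 for Eno1, 31 for Ldha and 20 for Pkm, and probes may be shared between a gene and its copies. Of the copies, 27 were measured as genes of their own. The 6 measured copies of Ldha had log2 ratios between -0.30 and -0.02, while Ldha itself was at 0.18, and the 6 measured copies of Gapdh lay between -0.45 and 0.0070. Some other copies lay on the same side of 0 as their gene. Examples are the copies of Pgk1 (0.11), Aldoa (0.04) and Bnip3 (-0.18). The measured copy of Egln1 was at 0.10, while Egln1 itself was at -0.09. Copies on both sides of 0 were found for Eno1 (4 measured, from -0.36 to 0.07), Pkm (-0.20 and 0.32) and Tpi1 (-0.50 and 0.13). Values of these enzymes are therefore uncertain as values of a single gene.

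Aldoc and Eno2, the aldolase and the enolase best known from neurons, had ratios opposite to those of Aldoa and Eno1. Aldoc had 102 in the DMA pool and 125 in the control pool (-0.29), close to the signal minimum. Eno2 had 468 in the DMA pool and 657 in the control pool (cluster TC0400003736.rn.1), a log2 ratio of -0.49 or 1.40-fold lower. A second Eno2 cluster (TSUnmapped00000014.rn.1, unmapped by its name) had 247 in the DMA pool and 522 in the control pool, which is 2.12-fold lower (-1.08). The mean of both clusters gave -0.79, past 1.5-fold. Beside this, 3 of 5 measured nerve and glia markers of a list of 10 were lower past 1.5-fold, Stmn2 (-2.21), Ncam1 (-1.05) and Scn7a (-0.68), whereas Uchl1 was at -0.01 and Tubb3 at 0.11. Among all measured genes, 5.48% were lower past 1.5-fold. The summed signal of the 5 markers was 9484 in the DMA pool and 13743 in the control pool. Most of each sum was Uchl1 (7801 in the DMA pool and 7866 in the control pool). The gap was mainly that of Stmn2 (1054 in the DMA pool and 4888 in the control pool). Prph, S100b, Gap43 and Snap25 were under the signal minimum on both arrays. The part of nerve tissue in the difference of Eno2 was not tested.

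Of 14 pairs of genes with the same activity, 11 had both genes measured, and their log2 ratios differed by 0.02 to 0.93, with a median of 0.17. A gap of at least 0.5 was found in 4 pairs. Hif1a exceeded Epas1 by 0.93, Eno1 exceeded Eno2 by 0.72, Slc2a1 exceeded Slc2a3 by 0.54 and Aldoa exceeded Aldoc by 0.51. Slc2a3 (101 in the DMA pool and 134 in the control pool) and Aldoc (102 in the DMA pool and 125 in the control pool) were close to the signal minimum. The gaps rest on 1 cluster per gene, and the second clusters had log2 ratios of -0.33 for Slc2a3 and -1.08 for Eno2. The other 7 pairs differed by less, down to 0.03 for Ldha and Ldhb and 0.02 for Pfkl and Pfkm. These gaps are differences between log2 ratios and say nothing about which form was more abundant, since signals of different probes are not comparable.

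**Figure D3:**
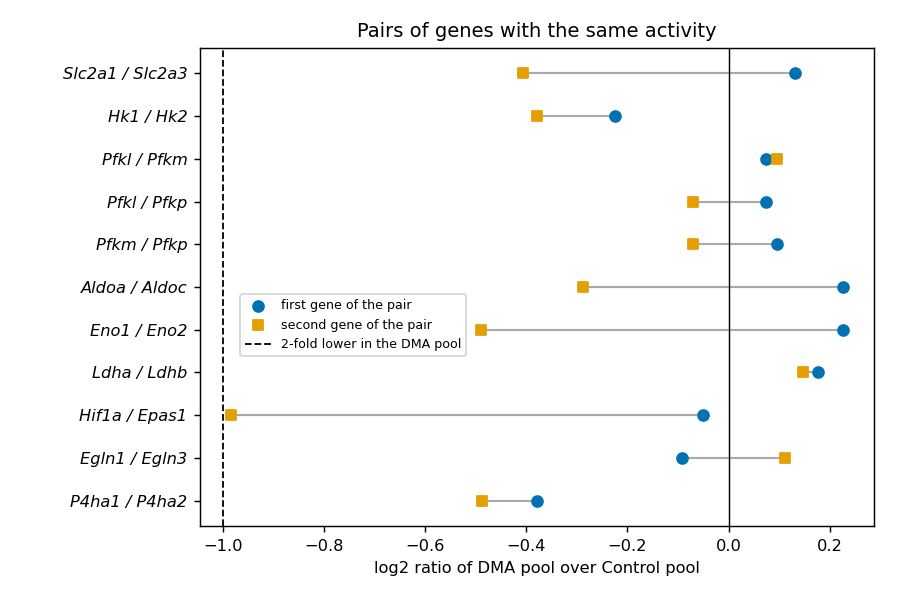
log2 ratio of the DMA pool over the control pool (x axis) for the first gene (circles) and the second gene (squares) of the 11 pairs with both genes measured (rows), with a grey line for the gap and a dashed line at 2-fold lower. The gap is widest for Hif1a and Epas1 (0.93) and narrowest for Pfkl and Pfkm (0.02).

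The letters of the hypoxia response element were looked up in the promoters, since HIF binds a short core with the letters ACGTG or GCGTG. Windows of 300 bases, from 250 before to 50 after a start site, came from RefSeq on GRCr8, and 33 of the 36 genes had at least 1 window, 38 in all; Ndrg1, Pgk1 and Slc2a3 had none. On either strand, ACGTG was found in 21 of the 38 windows (55.3%), against 24.6% of the 10422 windows of measured genes and 19.3% of all 33469 windows of the table. In 6 of the 38 the letters lay within the palindrome CACGTG, which is also the E-box of other factors. GCGTG was found in 44.7% of the 38 windows, against 47.8% for measured genes and 29.7% for all windows. Hypoxia genes and glycolytic genes that HIF is known to induce were among those picked, so the share is a description of the chosen genes and no result of the treatment. A match is a string of letters and not a shown binding site.

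The 18 measured genes with ACGTG in a window had a median log2 ratio of -0.07 (from -0.49 to 0.49), and the 9 without it had a median of 0.07 (from -0.98 to 0.19). The ranges overlapped. The 250 bases before the start are shown for the 3 genes with the lowest ratios (Epas1, Eno2 and P4ha2), for Ldha as an enzyme with a frequent core and a ratio of 0.18, and for Ankrd37, which had 3 ACGTG matches there and signals under the minimum. Capitals mark ACGTG or GCGTG, read on either strand, so that CACGT and CACGC are the same cores on the other strand. The windows are chr6:13624730-13624979 (minus strand) for Epas1, chr4:159267221-159267470 (minus strand) for Eno2, chr10:38743644-38743893 (plus strand) for P4ha2, chr1:106507842-106508091 (plus strand) for Ldha and chr16:53001257-53001506 (plus strand) for Ankrd37, all on GRCr8.
Epas1: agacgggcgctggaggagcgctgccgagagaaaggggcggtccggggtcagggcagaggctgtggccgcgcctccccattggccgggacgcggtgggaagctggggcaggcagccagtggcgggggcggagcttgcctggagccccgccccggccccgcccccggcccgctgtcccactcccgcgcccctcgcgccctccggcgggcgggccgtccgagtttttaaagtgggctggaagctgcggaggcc
Eno2: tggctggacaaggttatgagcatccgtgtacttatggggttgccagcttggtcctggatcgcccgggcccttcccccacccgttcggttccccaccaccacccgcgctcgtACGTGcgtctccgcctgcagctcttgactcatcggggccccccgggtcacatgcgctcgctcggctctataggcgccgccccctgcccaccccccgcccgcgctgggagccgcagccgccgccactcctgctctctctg
P4ha2: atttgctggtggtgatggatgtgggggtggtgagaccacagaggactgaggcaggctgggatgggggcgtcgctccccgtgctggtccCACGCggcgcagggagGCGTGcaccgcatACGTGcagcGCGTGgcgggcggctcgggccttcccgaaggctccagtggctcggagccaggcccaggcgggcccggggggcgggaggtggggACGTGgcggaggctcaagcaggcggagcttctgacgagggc
Ldha: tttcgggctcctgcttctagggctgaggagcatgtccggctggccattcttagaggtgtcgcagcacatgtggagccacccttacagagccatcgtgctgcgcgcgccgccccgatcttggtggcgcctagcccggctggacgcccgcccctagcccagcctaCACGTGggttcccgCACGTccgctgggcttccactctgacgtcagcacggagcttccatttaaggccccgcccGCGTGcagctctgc
Ankrd37: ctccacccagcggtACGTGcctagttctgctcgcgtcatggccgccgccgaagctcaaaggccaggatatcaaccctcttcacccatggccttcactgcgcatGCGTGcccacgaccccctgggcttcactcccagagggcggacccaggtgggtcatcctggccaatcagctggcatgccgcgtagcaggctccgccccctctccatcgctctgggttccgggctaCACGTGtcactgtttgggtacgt

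The Epas1 stretch held neither core, with a GC content of 76.8%. Eno2 held 1 ACGTG, whose first base lay 139 bases before the start. P4ha2 held 2 ACGTG, 133 and 41 bases before the start, and 3 GCGTG. In Ldha a CACGTG began 87 bases before the start and another ACGTG on the other strand 73 bases before it. In Ankrd37 a CACGTG began 23 bases before the start and a further ACGTG 236 bases before it, while 1 more match crossed the start and is not in capitals. Car12, the gene with the highest ratio, had its 2 ACGTG matches after the start, from base 11 and from base 35 of the transcript. Genes with several cores stood on both sides of 0, as P4ha2 (-0.49), Ldha (0.18) and Car12 (0.49) show.

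The neighbouring pathways were described through lists of other genes. Of 24 other genes of glycolysis, 13 were measured and 0 were past 1.5-fold in either direction, against 1.30% higher and 5.48% lower among all measured genes. The median of the 13 was 0.05. The largest differences were those of Galm, which interconverts the forms of glucose and galactose (-0.54), and of the transporter gene Slc2a12 (0.41). Of 34 other HIF targets, 26 were measured and their median was -0.11. In that list 1 gene was higher and 1 was lower at the 2-fold thresholds, Tfrc, the transferrin receptor (909 in the DMA pool and 403 in the control pool, 1.17), and Cxcl12, a stromal chemokine (252 in the DMA pool and 545 in the control pool, -1.11). Among all measured genes, 0.375% were higher and 1.42% were lower at these thresholds. At 1.5-fold 1 of the 26 was higher and 4 were lower, against 152 and 642 of all 11718 measured genes (1.30% and 5.48%). Both shares of the list lay above those of all genes, that of the higher genes through Tfrc alone. Next after Cxcl12 came the collagen cross-linking enzymes Loxl2 (-0.91) and Lox (-0.87), and then Angpt2 (-0.62). Markers of fibroblasts were lower in the same pool, as given above, and their part in these differences was not tested.

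At the branch between lactate and the mitochondrion, 1 of 13 measured genes was higher at the 2-fold thresholds, against 0.375% of all measured genes. Lower past 1.5-fold were 0 of the 13, against 5.48%. Pdk4, a kinase that switches pyruvate dehydrogenase off, had 2137 in the DMA pool and 623 in the control pool, which is 3.43-fold higher. The HIF-induced kinase Pdk1 had 797 in the DMA pool and 868 in the control pool (-0.12), Pdk2 was at -0.28, and the median of the list was -0.01. Of 8 genes of the pentose phosphate pathway 5 were measured and 0 were past 1.5-fold, with a median of 0.09, and its enzymes Tkt and Taldo1 were at 0.44 and 0.42. Of 16 genes of glycogen and gluconeogenesis 12 were measured with a median of -0.05, and 1 was past 1.5-fold, the muscle glycogen phosphorylase gene Pygm, which was lower (193 in the DMA pool and 301 in the control pool, -0.64). Among all measured genes, 1.30% were higher and 5.48% were lower past 1.5-fold. Smooth muscle markers were lower beside Pygm, with all 11 below 0, against 6902 of all 11718 measured genes, and a median of -0.37. The summed signals of the smooth muscle markers were 579465 in the DMA pool and 752301 in the control pool. Their part in the difference of Pygm was not tested.

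**Figure D4:**
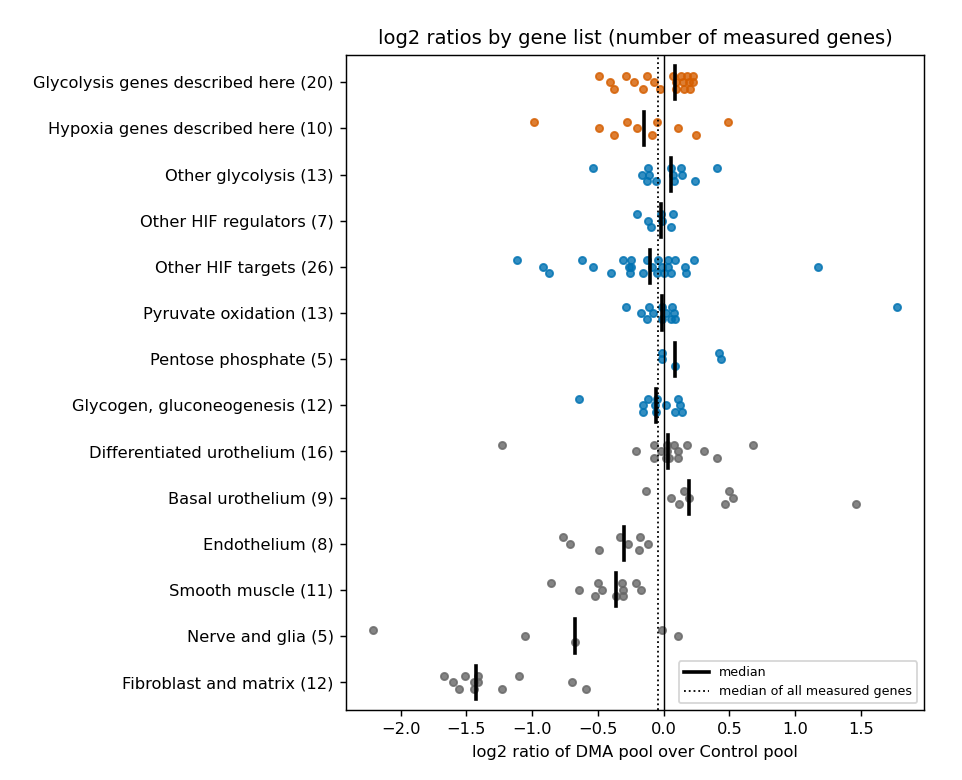
log2 ratio of the DMA pool over the control pool (x axis) of each measured gene (points, shifted up or down only to separate them) in 14 gene lists (rows, number of measured genes in brackets), with list medians as black bars and the median of all measured genes as a dotted line. The glycolysis (0.08) and hypoxia (-0.15) genes and the other metabolic lists centre near 0, and the fibroblast and matrix list centres at -1.43.

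The glycolysis genes as a whole had a median of 0.08 over 20 measured genes, with 11 above 0 (55%, against 41.1% of all measured genes) and 9 below. That median was -0.015 with arrays centred on the median of all clusters. Beside it, the median was 0.03 for the differentiated urothelium markers and 0.20 for the basal urothelium markers (9 measured of 10). Of these 9 basal markers 8 lay above 0, against 41.1% of all measured genes. Among the 9, Krt14 was higher at the 2-fold thresholds (4840 in the DMA pool and 1752 in the control pool, 1.47). The part of the urothelial share in the values of the glycolytic enzymes was not tested.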

How the data were processed

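The data were 2 Affymetrix arrays of biotin-labelled RNA, 1 per pool of 7 rats. The methods of the study name another Affymetrix rat array than the one whose transcript clusters the deposited table holds. The deposited values are signal intensities on a linear scale, which the authors made with RMA in Affymetrix Expression Console 1.4.1 per the labels. RMA makes the distributions of probe signals alike between arrays, so a change shared by most transcripts is removed, and it narrows ratios of dim transcripts. The genome build was not given in the sources used here. The methods of the study also name a global median normalization and removal of signals under 100, but the file holds such signals.

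The values were taken to log2 (Python 3.11.15, pandas 2.3.3, numpy 2.4.6). Of 68842 clusters, 23446 had 1 gene symbol in the platform annotation; 22077 of these had a gene identifier found in the GRCr8 gene table, from which the symbol was taken. For the Z score, whose formula was chosen here, each log2 ratio was centred and scaled by the mean and SD of ratios among the 500 genes closest to it in average log2 signal. The steps were tested on simulated data, where recovery was required only of changes larger than any found among the 36 genes. Named were all 36 genes and in each of 16 lists up to 4 genes farthest from a log2 ratio of 0. Further list genes (Vwf, Uchl1, Upk2, Slc4a1, Angpt2, C1qa, C1qc and the nerve markers under the signal minimum) were named after their values were seen. Members and lists were chosen with earlier results of these data known. Alternatives were 3 other signal minima, 4 other scalings, the mean of a gene's clusters, the symbols as annotated and 2 changes to the Z score; lowess fits (statsmodels 0.14.6) used a span of 0.3. A comparison of protein sequences was planned and not run here.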

Additional observations from a re-analysis of the deposited data

How the results depend on the processing

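Of 67 comparisons of the main results with an alternative, 63 changed no count by more than 1.5 times and moved no median by more than 0.1, a bound set here because there are no replicates. The exceptions were counts of lower genes. With arrays centred on the median of all clusters, 3 of the 30 genes were lower past 1.5-fold (Epas1, Eno2 and P4ha2), against 1, and 1 (Epas1) was lower at the 2-fold thresholds, against 0. With ratios centred on the differentiated urothelium markers, 1 (Epas1) was lower at the 2-fold thresholds. Both centrings shifted all ratios down, to medians of -0.14 and -0.08 over all measured genes. Lower genes at the 2-fold thresholds were then 244 and 189 over all genes, against 166. With the mean of all clusters of a gene, 2 (Epas1 and Eno2) were lower past 1.5-fold. The median of the 30 genes, -0.04, ran from -0.14 to 0.043, and that of the hypoxia genes, -0.15, from -0.24 to -0.09. The sign changed under some alternative for 5 of the 30 genes (Gpi, Pfkl, Pfkm, Gapdh and Hif1a), 14 were below 0 and 11 above 0 in all. Over all genes, the 44 higher genes were 19 if a signal of 100 was asked of each array and 29 with a minimum of 200. For the lists, medians under the same alternatives were added after seeing the data; those of the nerve markers ran from -0.86 (4 markers, minimum of 200) to -0.01 (9 markers, no minimum), those of the red cell markers from -2.34 to -1.16, of the mitosis genes from 0.92 to 1.95, of the basal urothelium markers from 0.10 to 0.33, of the differentiated urothelium markers from -0.06 to 0.22 and of the other glycolysis genes from -0.05 to 0.09.

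No paired analysis was possible because each group has 1 array. Leaving out a replicate was not possible for the same reason. Signals under 100 limit Pfkfb3, Pfkfb4, Slc16a3, Car9, Ankrd37 and Adm, for which no difference can be read, and the number of arrays limits the precision of every value.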

Other observations

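The remaining marker lists were set out for the cells that the pools could hold. Of 10 mitosis genes 7 were measured, and 7 were higher in the DMA pool past 1.5-fold, with Mki67, a marker of cycling cells, at 2.39 and a list median of 1.40; in the control pool 5 of the 7 had signals below 100, and these passed the minimum only through the DMA pool, which fixed their direction. Of 10 macrophage markers 9 were measured with a median of -0.58. Of these, 4 were lower past 1.5-fold, against 5.48% of all measured genes, with Csf1r, the receptor of the macrophage growth factor, at -0.88. Above 0 lay 2 of the 9, C1qc at 0.17 and C1qa at 0.03, against 41.1% of all measured genes. All 3 measured red cell markers of 6 were lower at the 2-fold thresholds, against 1.42% of all measured genes. Hba-a1, an alpha globin gene, was at 18864 in the DMA pool and 89173 in the control pool. Of these 3, Hbb (99.6 in the DMA pool and 223 in the control pool) passed the minimum only through the control pool, and of the 2 markers under the minimum on both arrays Slc4a1 was at 0.23. With no signal minimum the median of the 5 red cell markers was -1.16, against -2.24 for the 3. The 4 measured skeletal muscle markers of 10 had a median of -0.02 and 0 past 1.5-fold.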
